A study of Mus musculus with 14 samples.

Results

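The genes described here are the drug-metabolising cytochromes Cyp2a4, Cyp2a5, Cyp2a22, Cyp2b9, Cyp2b10 and Cyp2b13, together with Nr1i3, the gene of the constitutive androstane receptor CAR. A gene was taken where a probe set of the array carried its symbol and no other, and each of the 7 members was found with a single probe set, among 22180 genes measured in this way. No measured value entered this choice of probe sets, but the members themselves were chosen with earlier results of these data known. Liver RNA of 14 male C57BL/6 mice, 1 liver per array, had been hybridised to whole-transcript arrays, and values are log2 intensities after robust multi-array averaging. All mice carried Alb-Cre, which makes Cre recombinase from the albumin promoter and so in hepatocytes. The genotypes differed in how many Lmna copies were floxed, that is, open to removal by Cre, and Lmna encodes lamins A and C. Livers of mice with 2 floxed copies (LMNA flx/flx) are called KO, those with 1 copy (LMNA flx/+) HET, and those with none (LMNA +/+) WT.

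The 5 groups were 3 KO livers (35.3 weeks old) and 3 HET livers (30 to 30.4 weeks) after 14 weeks of a high-fat regimen, and 3 KO (38.9 weeks), 3 HET (24 to 26.4 weeks) and 2 WT livers (24.6 and 27 weeks) after 14 weeks of normal chow. The high-fat regimen, HFD, was the Surwit diet with 42 g/L of carbohydrate in the drinking water, of which 55% was fructose and 45% sucrose. Arrays C2, C3 and C4 held KO and A2, B1 and B2 HET livers on HFD, and H1, H2 and I1 held KO, F1, F2 and P1 HET, and G1 and N1 WT livers on chow. No WT livers on HFD were among the samples. KO mice were older than HET mice on either diet, so age and genotype cannot be told apart in any KO comparison. Within a genotype, HET mice were older and KO mice younger on HFD than on chow. Age and diet thus cannot be told apart in any comparison of HFD with chow. Liver cells other than hepatocytes keep Lmna in these mice, and its dim probe set ranged over 3.67 to 4.09 in 6 KO livers and over 4.07 to 4.50 in 8 HET and WT livers. Averaged over both diets, Lmna fell by 0.31 ± 0.09 in KO against HET livers (SE, limma adjusted p = 0.0386). Within a diet its KO minus HET difference did not pass, at -0.16 ± 0.12 on HFD (adjusted p = 0.517) and -0.47 ± 0.12 on chow (adjusted p = 0.0823). Array medians lay between 2.21 and 2.30, which is used below as a mark of a dim signal. Differences were tested with limma over all genes, with a call at a Benjamini-Hochberg adjusted p under 0.05, and ± gives the standard error of a difference or, where stated, the SD of a group. With 2 or 3 livers per group, the precision of every value is limited by the number of arrays.

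CAR is a nuclear receptor of hepatocytes that rests in the cytoplasm and moves to the nucleus after exposure to phenobarbital-like compounds. There it binds DNA as a partner of the retinoid X receptor RXR and switches on genes for the oxidation, conjugation and export of foreign compounds, with Cyp2b10 the usual marker gene in mouse liver. The pregnane X receptor PXR, encoded by Nr1i2, shares many of these targets. Cyp2a5 oxidises coumarin and nicotine, Cyp2a4 hydroxylates testosterone, and Cyp2a4, Cyp2b9 and Cyp2b13 are known in mice as genes expressed more in female than in male liver. The livers here were all male.

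The 6 cytochrome genes lie close together on chromosome 7, and the windows around their annotated starts show how alike some of them are. The RefSeq promoter table (build GRCm38.p6) held all 7 members, with 250 bases before and 50 bases after each start. Windows of 5 genes, all on the plus strand, are shown 5′ to 3′ with the shared letters TTGNATAA in capitals.
Cyp2b9 at chr7:26173159-26173458: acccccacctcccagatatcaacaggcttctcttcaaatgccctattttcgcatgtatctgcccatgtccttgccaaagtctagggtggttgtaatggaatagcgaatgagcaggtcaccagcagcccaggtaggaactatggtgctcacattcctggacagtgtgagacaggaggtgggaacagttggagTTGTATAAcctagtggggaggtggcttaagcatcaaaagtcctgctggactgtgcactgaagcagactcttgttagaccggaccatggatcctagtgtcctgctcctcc
Cyp2b13 at chr7:26061245-26061544: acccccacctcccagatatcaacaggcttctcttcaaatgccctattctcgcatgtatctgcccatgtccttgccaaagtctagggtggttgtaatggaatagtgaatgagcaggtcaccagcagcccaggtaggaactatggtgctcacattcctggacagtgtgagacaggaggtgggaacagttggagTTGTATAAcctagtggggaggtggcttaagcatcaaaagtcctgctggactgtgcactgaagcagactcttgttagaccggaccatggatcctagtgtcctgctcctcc
Cyp2b10 at chr7:25897408-25897707: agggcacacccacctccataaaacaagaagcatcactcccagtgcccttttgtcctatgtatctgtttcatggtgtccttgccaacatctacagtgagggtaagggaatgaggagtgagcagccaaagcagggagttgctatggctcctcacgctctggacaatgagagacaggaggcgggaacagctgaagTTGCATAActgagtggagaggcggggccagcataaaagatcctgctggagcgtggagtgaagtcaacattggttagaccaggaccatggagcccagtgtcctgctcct
Cyp2a4 at chr7:26306942-26307241: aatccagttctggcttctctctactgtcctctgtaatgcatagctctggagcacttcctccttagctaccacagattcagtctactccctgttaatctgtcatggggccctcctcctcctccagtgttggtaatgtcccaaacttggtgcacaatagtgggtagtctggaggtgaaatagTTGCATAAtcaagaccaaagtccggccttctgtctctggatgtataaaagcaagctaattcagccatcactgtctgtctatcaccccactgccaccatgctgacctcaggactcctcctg
Cyp2a5 at chr7:26835089-26835388: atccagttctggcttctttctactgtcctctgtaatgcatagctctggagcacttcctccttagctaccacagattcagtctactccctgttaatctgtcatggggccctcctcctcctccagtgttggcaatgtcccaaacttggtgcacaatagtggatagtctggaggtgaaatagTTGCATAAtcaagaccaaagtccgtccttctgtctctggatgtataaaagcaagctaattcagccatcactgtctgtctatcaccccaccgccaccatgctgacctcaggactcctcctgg

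The windows of Cyp2b9 and Cyp2b13 had 298 of 300 bases in common (99.3%). Counted from 1 at the 5′ end of the window, with the base of Cyp2b13 given before the position and that of Cyp2b9 after it, they differed by C48T and T104C. The windows of Cyp2a4 and Cyp2a5 had 294 of 299 aligned bases in common (98.3%), while Cyp2b9 and Cyp2b10 had 223 of 289 (77.2%). TTGNATAA, searched on both strands, was picked after the sequences had been read. It stood in 5 of the 7 member windows, as TTGCATAA in Cyp2a4, Cyp2a5 and Cyp2b10 and as TTGTATAA in Cyp2b9 and Cyp2b13, and in 2.81% of 32851 promoter windows searched. The half-site AGGTCA, to which CAR and other nuclear receptors bind, stood on either strand in 4 of 7 member windows and in 16.3% of all windows. In Cyp2b9 and Cyp2b13 it lay at -138 from the start. The repeat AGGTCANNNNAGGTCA, in which half-sites are 4 bases apart, was in 0 of 7 member windows and 0.0152% of all windows. The phenobarbital-responsive enhancer known for Cyp2b10 lies farther upstream than these windows reach. The windows lie mostly before the start, and transcript and probe sequences were not compared. Probe sets of Cyp2a4 and Cyp2a5, or of Cyp2b9 and Cyp2b13, may pick up signal of each other, which the windows cannot show.

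The cytochromes ranged widely between livers. The range over the 14 arrays was 8.14 log2 units for Cyp2b9, 6.38 for Cyp2b10, 5.69 for Cyp2b13 and 4.97 for Cyp2a4. For each of the 6 cytochromes this range exceeded that of at least 99.3% of all genes. Nr1i3 ranged over 2.51 log2 units, more than 97.8% of genes.

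Some arrays stood apart from others of their group. Among HET livers on chow, array P1 had Nr1i3 at 9.97, Cyp2b9 at 8.51 and Cyp2b13 at 7.57, while F1 and F2 had Nr1i3 at 7.72 and 7.46, Cyp2b9 at 3.43 and 4.42, and Cyp2b13 at 1.90 and 2.66. P1 came from a mouse of 24 weeks, and F1 and F2 from mice of 26.4 weeks. Of the WT livers on chow, N1 (24.6 weeks) had Nr1i3 at 9.86 and G1 (27 weeks) at 8.13. The HET livers on chow differed in clock genes too. Dbp, an output gene of the circadian clock, stood at 9.56 in P1 against 6.68 and 5.70 in F1 and F2, and Arntl, a core clock gene with opposite phase, at 4.22 against 8.13 and 8.34. Dbp and its relatives are known in mice to drive Nr1i3, Cyp2a4 and Cyp2a5. The part of clock phase in the results was not tested beyond a fit with Dbp minus Arntl as a term, whose values stand where they change a call. Among HET livers on HFD, array B2 was the lowest for Cyp2a4, Cyp2a5, Cyp2a22, Cyp2b9 and Nr1i3. Values without these arrays stand beside the results that they move most.

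Cyp2b10 had its lowest values on the high-fat regimen, in either genotype, and there it was higher in KO than in HET livers. Its log2 values were 3.52, 3.17 and 5.05 in KO livers on HFD, against 7.20, 7.70 and 7.39 in KO livers on chow. In HET livers they were 1.32, 1.45 and 1.73 on HFD, against 7.06, 6.76 and 6.33 on chow, and the WT livers on chow had 6.01 and 5.66. No HFD liver reached the lowest chow liver of any genotype. Of all genes, 9.68% were lower in every HFD than in every chow liver of KO mice and 6.83% in HET mice. In order of level the groups ran from KO on chow (7.43 ± 0.25, SD) through HET on chow (6.72 ± 0.37), WT on chow (5.83 ± 0.25) and KO on HFD (3.91 ± 1.0) to HET on HFD (1.5 ± 0.21). The ranges of neighbours in this order did not overlap, although no step between chow groups passed the test. WT livers on chow were not tested against KO livers on HFD. Of all genes, 9.59% were higher in every KO than in every HET liver on chow and 13.3% on HFD, and shares for the other steps are not given here.

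Cyp2b10 fell by 5.22 ± 0.37 in HET livers on HFD against chow (adjusted p = 8.64e-05). It fell by 3.51 ± 0.37 in KO livers on HFD against chow (adjusted p = 0.0018), an 11.4-fold difference. It was the only member called in either diet contrast, where 0.149% of all genes were called lower in HET livers and 0.108% in KO livers. All 3 HET values on HFD lay below the median of their array, so the size of the fall in HET livers is uncertain. With such values set to the array median, the difference was -4.44 ± 0.37 (adjusted p = 4.91e-04). On HFD, Cyp2b10 rose by 2.41 ± 0.37 in KO against HET livers (adjusted p = 0.0019), or by 1.63 ± 0.37 with HET values at the array medians (adjusted p = 0.0167). On chow the difference between KO and HET livers was 0.71 ± 0.37 (adjusted p = 0.449) and that between KO and WT livers 1.59 ± 0.42 (adjusted p = 0.0919), neither of which passed. The interaction of genotype and diet was 1.70 ± 0.53 (adjusted p = 0.323), so the fall was not shown to differ between genotypes. For the interaction 0.0361% of all genes passed in either direction, and no member did.

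**Figure D1:**
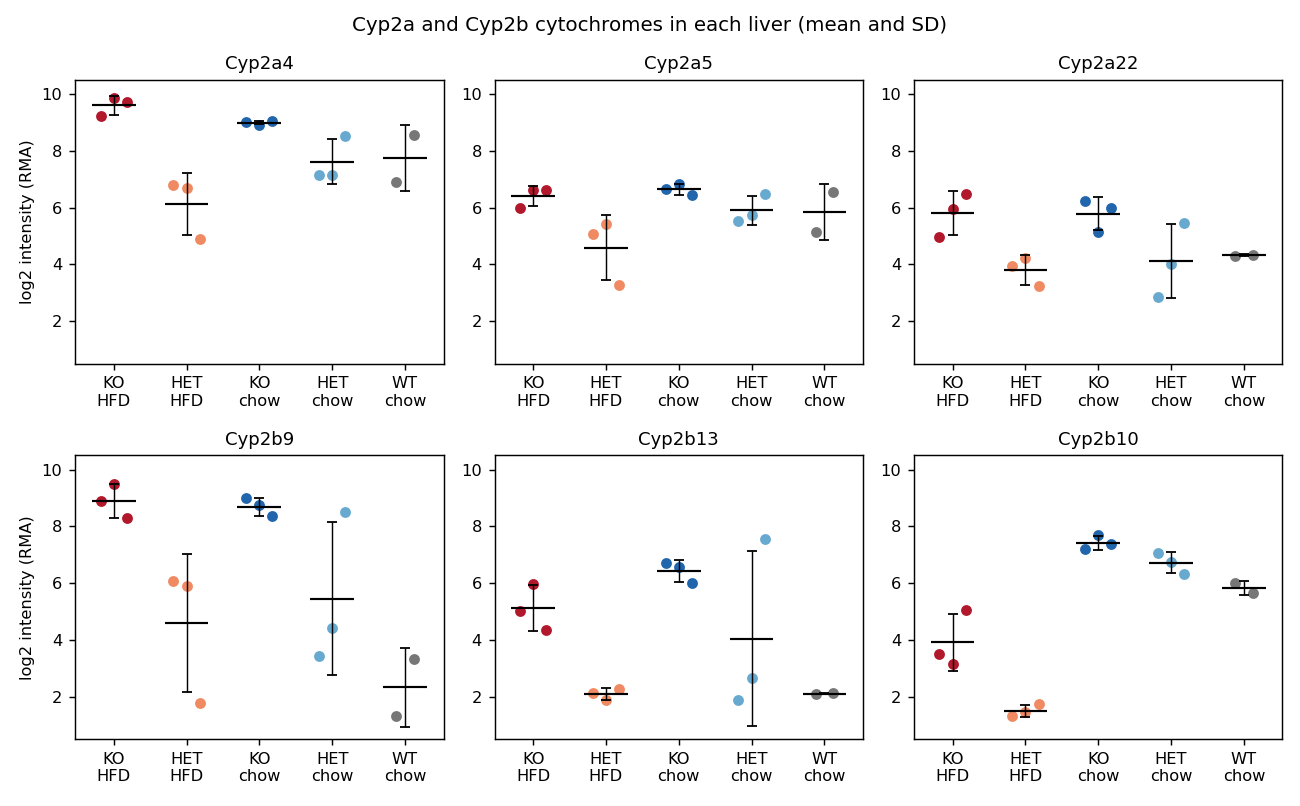
Log2 intensity of the 6 cytochromes in each liver, on 1 scale. Each point is a liver, the wide bar is the group mean and the error bar its SD (n = 3 per group, 2 for WT). Cyp2b10 is low in both HFD groups, whereas in all 6 KO livers Cyp2a4 lies at 8.92 or above and Cyp2b9 at 8.29 or above.

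On HFD all 6 cytochromes were higher in every KO than in every HET liver, and 4 of them passed the test: Cyp2a4, Cyp2a5, Cyp2a22 and Cyp2b10. In that comparison 13.3% of all genes were without overlap in this direction and 5.5% were called higher. The median difference over the 6 cytochromes was 2.72, against -0.02 over all genes.

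All 6 KO livers had more Cyp2a4, the testosterone hydroxylase, than any of the other 8 livers. It had 9.23, 9.85 and 9.70 in KO livers on HFD, against 6.81, 6.68 and 4.88 in HET livers on HFD. On chow it had 9.01, 8.92 and 9.04 in KO livers, against 7.16, 7.15 and 8.53 in HET livers and 6.92 and 8.56 in WT livers. The 6 KO livers spanned 8.92 to 9.85 and the 8 others 4.88 to 8.56. The share of all genes with such a split of 6 against 8 livers is not given here. Cyp2a4 rose by 3.47 ± 0.52 in KO against HET livers on HFD (adjusted p = 0.0016), an 11.1-fold difference, and by 2.85 without array B2 (adjusted p = 0.0042). On chow the difference was 1.37 ± 0.52 against HET livers (adjusted p = 0.254) and 1.25 ± 0.59 against WT livers (adjusted p = 0.434). With diet, Cyp2a4 differed by 0.61 ± 0.52 in KO livers (adjusted p = 0.747) and by -1.49 ± 0.52 in HET livers (adjusted p = 0.336).

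Cyp2a5, the coumarin hydroxylase, had 5.99, 6.61 and 6.61 in KO livers on HFD, against 5.07, 5.42 and 3.28 in HET livers on HFD. On chow it had 6.64, 6.84 and 6.43 in KO livers, against 5.52, 5.73 and 6.49 in HET livers and 5.15 and 6.55 in WT livers. KO livers were thus set apart on HFD, and on chow their range overlapped with those of HET and WT livers. Cyp2a5 rose by 1.81 ± 0.49 in KO against HET livers on HFD (adjusted p = 0.0396), and without array B2 the difference was 1.16 (adjusted p = 0.0974). On chow the KO minus HET difference was 0.73 ± 0.49 (adjusted p = 0.587).

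Cyp2a22 had 4.95, 5.95 and 6.48 in KO livers on HFD, against 3.94, 4.23 and 3.23 in HET livers on HFD. On chow it had 6.23, 5.13 and 5.98 in KO livers, against 2.85, 4.0 and 5.46 in HET livers and 4.30 and 4.34 in WT livers. The HET value of 5.46 on chow belongs to array P1 and lies within the KO range. Cyp2a22 rose by 1.99 ± 0.56 in KO against HET livers on HFD (adjusted p = 0.0466), and without array B2 the difference was 1.71 (adjusted p = 0.139). On chow the difference was 1.68 ± 0.56 (adjusted p = 0.186), and without array P1 it was 2.35 (adjusted p = 0.0248). The calls of Cyp2a5 and Cyp2a22 on HFD lay close to the threshold. That of Cyp2a5 was lost on leaving out any 1 of 9 arrays (all but G1, N1, F1, P1 and B1), at an adjusted p of 0.0501 to 0.126. That of Cyp2a22 was lost on leaving out any 1 of 11 arrays (all but F1, P1 and C2), at an adjusted p of 0.0509 to 0.175.

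**Figure D2:**
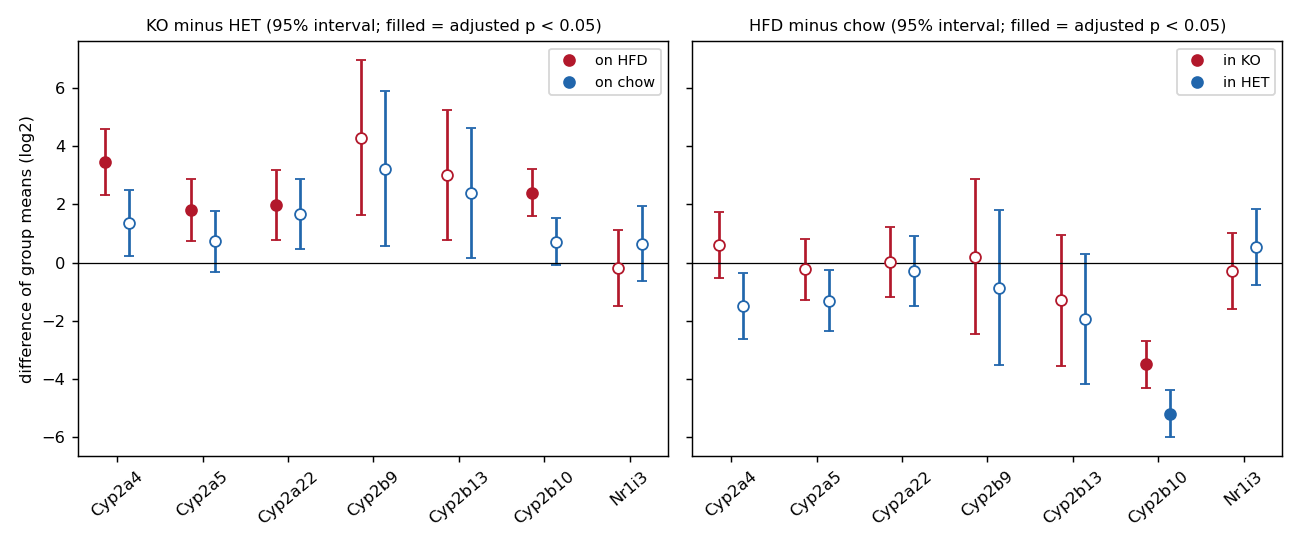
Differences of group means on the log2 scale for the 7 members with 95% confidence intervals, KO minus HET by diet on the left and HFD minus chow by genotype on the right. Filled points passed an adjusted p of 0.05: Cyp2a4, Cyp2a5, Cyp2a22 and Cyp2b10 for KO against HET on HFD, and Cyp2b10 for HFD against chow in KO and in HET livers.

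Cyp2b9 was high in all KO livers and varied widely among the others. It had 8.91, 9.48 and 8.29 in KO livers on HFD, against 6.08, 5.89 and 1.79 in HET livers on HFD. On chow it had 8.99, 8.74 and 8.35 in KO livers, against 3.43, 4.42 and 8.51 in HET livers and 1.34 and 3.32 in WT livers. The 6 KO livers spanned 1.19 log2 units and the 8 others 7.18, with HET array P1 at 8.51 inside the KO range. Cyp2b9 rose by 6.37 ± 1.38 in KO against WT livers on chow (adjusted p = 0.0357), where 1.24% of all genes were called higher, and it was the only member called. The size is uncertain because WT array G1 lay below its array median, and with that value at the median the difference was 5.91 ± 1.29 (adjusted p = 0.0366). This call was lost on leaving out any 1 of 7 arrays (a WT or KO array on chow, C2 or C3), at an adjusted p of 0.0508 to 0.232. With 5 of the 6 cytochromes, all but Cyp2a5, every KO liver on chow was above both WT livers, as were 15.1% of all genes. Against HET livers the difference was 4.30 ± 1.23 on HFD (adjusted p = 0.0522) and 3.24 ± 1.23 on chow (adjusted p = 0.253), neither of which passed. Without array P1 these were 4.30 (adjusted p = 0.0141) and 4.77 (adjusted p = 0.0341), and with F1 and F2 left out together the chow difference was 0.18 (adjusted p = 0.990). Without array B2, the lowest HET liver on HFD, the HFD difference was 2.90 (adjusted p = 0.162), and with the clock term it was 4.65 (adjusted p = 0.0138). Between HFD and chow, Cyp2b9 differed by 0.20 ± 1.23 in KO livers (adjusted p = 0.979) and by -0.86 ± 1.23 in HET livers (adjusted p = 0.875).

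Cyp2b13 had 5.02, 5.97 and 4.37 in KO livers on HFD, against 2.15, 1.87 and 2.26 in HET livers on HFD. On chow it had 6.70, 6.58 and 5.99 in KO livers, against 1.90, 2.66 and 7.57 in HET livers and 2.11 and 2.13 in WT livers. Array P1 was here above every KO liver, while the other 7 HET and WT livers lay between 1.87 and 2.66, at or near the array medians, so that differences from them are of uncertain size. The KO minus HET difference was 3.03 ± 1.04 on HFD (adjusted p = 0.104) and 2.38 ± 1.04 on chow (adjusted p = 0.336), and the KO minus WT difference on chow 4.31 ± 1.16 (adjusted p = 0.103). Without array P1 these were 3.03 (adjusted p = 3.39e-04), 4.15 (adjusted p = 2.12e-04) and 4.31 (adjusted p = 1.24e-04), since P1 widens the error of every contrast in the shared fit. With F1 and F2 left out together, and so with P1 as the only HET liver on chow, the KO minus HET difference on chow was -1.14 (adjusted p = 0.406). With the clock term Cyp2b13 was called for KO against HET on HFD (3.42, adjusted p = 0.0025), for KO against WT on chow (5.61, adjusted p = 8.89e-04) and for HFD against chow in HET livers (-3.94, adjusted p = 0.0305). Without the term, the HFD minus chow difference was -1.31 ± 1.04 in KO livers (adjusted p = 0.713) and -1.95 ± 1.04 in HET livers (adjusted p = 0.560). The difference in HET livers was -0.19 without array P1 (adjusted p = 0.906) and -5.47 without F1 and F2 (adjusted p = 0.0020).

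Averaged over both diets, all 6 cytochromes were called higher in KO than in HET livers, where 6.52% of all genes were called higher. Cyp2b9 rose by 3.77 ± 0.87 (adjusted p = 0.0156), Cyp2b13 by 2.70 ± 0.73 (adjusted p = 0.0352) and Cyp2a4 by 2.42 ± 0.37 (adjusted p = 0.0011). Cyp2a22 rose by 1.83 ± 0.39 (adjusted p = 0.0101), Cyp2b10 by 1.56 ± 0.26 (adjusted p = 0.0022) and Cyp2a5 by 1.27 ± 0.35 (adjusted p = 0.0355). The call of Cyp2a5 was lost on leaving out any 1 of 7 arrays (F1, F2, H1, H2, I1, C3 or C4; adjusted p = 0.0611 to 0.0814), and that of Cyp2b13 any 1 of 10 (all but G1, N1, P1 and C4; adjusted p = 0.0602 to 0.0890). Without F1 and F2 together, Cyp2a4 (1.96, adjusted p = 0.0213) and Cyp2b10 (1.75, adjusted p = 0.0107) were called and the other 4 cytochromes were not. On chow alone none of the 7 members was called between KO and HET livers, where 1.92% of all genes were called in either direction. Of the 6 cytochromes, 4 had an unadjusted limma p under 0.05 in that comparison, as had 2968 of 22180 genes. There 2 cytochromes, Cyp2a4 and Cyp2b10, were higher in every KO than in every HET liver, as were 9.59% of all genes. Between HET and WT livers on chow no member and 0 of 22180 genes were called by limma, with 954 genes at an unadjusted p under 0.05. The largest member difference there was 3.13 ± 1.38 for Cyp2b9 (adjusted p = 0.999), which was 1.60 without P1 (adjusted p = 0.800) and 6.18 without F1 and F2 (adjusted p = 0.402). With P1 as the only HET liver on chow, Cyp2b13 was called against WT livers (5.45, adjusted p = 0.0051). These comparisons share HET livers on chow or on HFD, so their values are not independent of each other.

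No contrast of genotype or diet passed the test for Nr1i3 itself in the fit without an age term. It had 8.69, 8.92 and 8.58 in KO livers on HFD, against 9.67, 9.04 and 8.03 in HET livers on HFD. On chow it had 9.17, 9.10 and 8.82 in KO livers, against 7.72, 7.46 and 9.97 in HET livers and 8.13 and 9.86 in WT livers. The 6 KO livers lay within 0.59 log2 units of each other and inside the span of 2.51 of the 8 others. The KO minus HET difference was -0.18 ± 0.60 on HFD (adjusted p = 0.909; 95% interval -1.48 to 1.12) and 0.65 ± 0.60 on chow (adjusted p = 0.717; 95% interval -0.65 to 1.95). The HFD interval leaves room for a change of more than 1 log2 unit in either direction. The chow difference was 1.44 without array P1 (adjusted p = 0.157) and -0.94 without F1 and F2 (adjusted p = 0.697), and the HFD difference was -0.63 without B2 (adjusted p = 0.646). Age is nearly a function of group. With age as a linear term, Nr1i3 was called for KO against HET on chow (11.54, adjusted p = 0.0411) and over both diets (7.79, adjusted p = 0.0440). It was also called for HFD against chow in HET livers (4.24, adjusted p = 0.0351) and for the interaction (-7.49, adjusted p = 0.0386). All livers within a KO group had the same age, so the age slope rests on gaps within the HET and WT groups. These sizes exceed the 2.51 log2 units that Nr1i3 spanned, so the calls are not reliable.

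Nr1i2, the gene of PXR, was even across all livers, between 8.63 and 9.11 on the 14 arrays. Its KO minus HET difference was 0.19 ± 0.13 on HFD (adjusted p = 0.465) and 0.04 ± 0.13 on chow (adjusted p = 0.942). Rxra, the gene of the partner RXR alpha, had 9.32, 9.43 and 9.57 in KO livers on HFD, against 10.03, 9.97 and 9.60 in HET livers on HFD. The difference was -0.43 ± 0.14 (adjusted p = 0.0787), which did not pass, or -0.56 without B2 (adjusted p = 0.0256). In chow livers Rxra lay between 9.34 and 9.78.

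**Figure D3:**
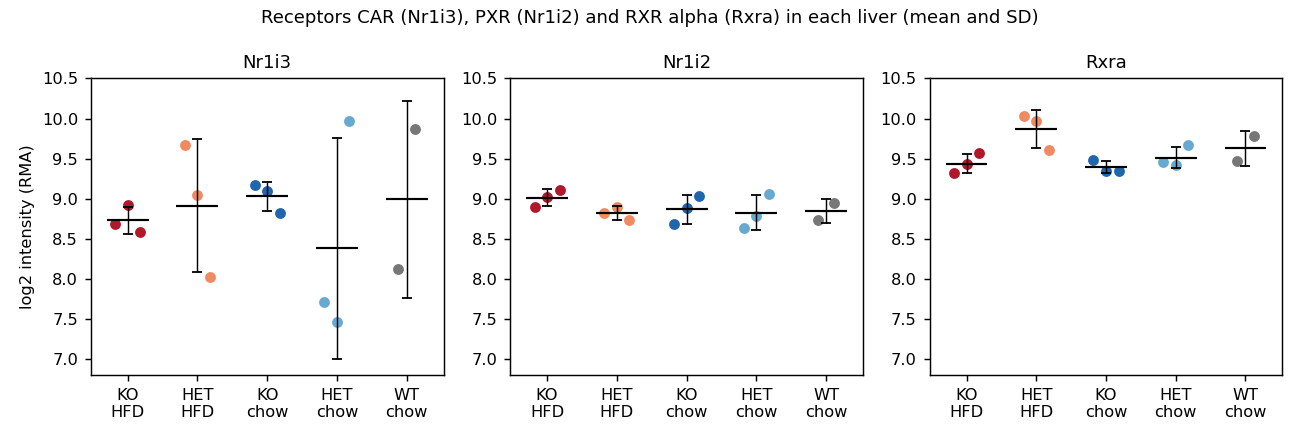
Log2 intensity of Nr1i3 (CAR), Nr1i2 (PXR) and Rxra (RXR alpha) in each liver, with group mean and SD. Nr1i3 spreads over 2.51 log2 units among HET and WT livers and over 0.59 among KO livers, while Nr1i2 stays between 8.63 and 9.11.

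Of 25 measured receptors, chaperones and cofactors that act with CAR and PXR, 0 were higher and 5 lower in KO than in HET livers on HFD. Of all genes, 5.5% were called higher and 2.06% lower there. The median difference was -0.18 for this list, against -0.02 over all genes. Egfr, whose ligand is known to hold CAR inactive, fell by 1.39 ± 0.15 (adjusted p = 1.62e-04). The coactivator genes Ncoa2 and Ncoa1 fell by 0.47 ± 0.10 (adjusted p = 0.0154) and 0.52 ± 0.14 (adjusted p = 0.0356). Nr0b2, the gene of the corepressor SHP, fell by 0.98 ± 0.26 (adjusted p = 0.0377), and Hnf4a, a hepatocyte transcription factor, by 0.36 ± 0.10 (adjusted p = 0.0423). On chow Egfr alone of this list passed, with a fall of 0.69 ± 0.15 (adjusted p = 0.0329), where 1.44% of all genes were called higher and 0.478% lower.

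The link between receptor and targets was examined over the 14 livers after the group mean had been taken from each value, so that differences between groups do not enter. Within groups, livers with more Nr1i3 had more Cyp2a4 and Cyp2b9. Pearson's r was 0.90 for Cyp2a4 (rho 0.90) and 0.92 for Cyp2b9 (rho 0.94), with permutation p adjusted over 12 receptor and target pairs of 0.0394 for both r, and of 0.0494 and 0.0234 for rho (two-sided, permuted within groups). Without F1 and F2, the livers farthest from the median of Nr1i3, r was 0.92 for Cyp2a4 and 0.88 for Cyp2b9. Group means were then taken anew, so P1, the only HET liver left on chow, stood at its group mean and added nothing to r. Cyp2a5 had r = 0.77 (adjusted permutation p = 0.0697) and rho = 0.81 (adjusted permutation p = 0.0494), and r = 0.85 without F1 and F2.

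Cyp2b10, the usual CAR marker, ran the other way, with r = -0.44 (adjusted permutation p = 0.0394) and rho = -0.64 (adjusted permutation p = 0.0494), and r = -0.37 without F1 and F2. All 3 HET values of Cyp2b10 on HFD lay below the median of their array, so their order is uncertain. The relation without these livers was not tested. The relations of Nr1i3 with Cyp2b13 (r = 0.72, adjusted permutation p = 0.119) and Cyp2a22 (r = 0.59, adjusted permutation p = 0.171) did not pass. Without F1 and F2, where P1 again added nothing, r was 0.13 and 0.24. Nr1i2 was related to Cyp2a4 (r = 0.67, adjusted permutation p = 0.0394; rho = 0.70, adjusted permutation p = 0.0494) and, by r, to Cyp2a5 (r = 0.60, adjusted permutation p = 0.0426). Without the livers farthest from the median of Nr1i2, F1 and C4, r was 0.67 and 0.56. Most of the spread in Nr1i3 came from HET and WT livers, in which Dbp, Arntl and age varied as well. The part of the clock or of age in these relations was not tested.

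**Figure D4:**
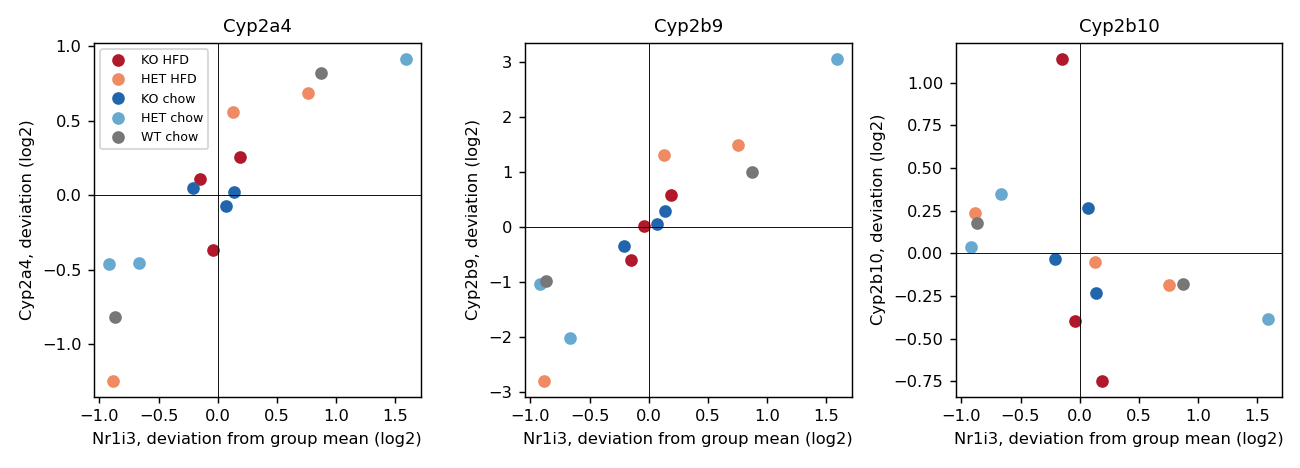
Deviation of each liver from its group mean on the log2 scale, Nr1i3 on the horizontal axis and Cyp2a4, Cyp2b9 or Cyp2b10 on the vertical axis. Points are the 14 livers, coloured by group. Cyp2a4 and Cyp2b9 run upward with Nr1i3 (r 0.90 and 0.92) and Cyp2b10 downward (r -0.44).

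Other targets of CAR and PXR were split. Of 34 measured, 12 were higher and 3 lower in KO than in HET livers on HFD, against 5.5% and 2.06% of all genes. Their median difference was 0.38. Abcc4, an export pump, rose by 3.47 ± 0.21 (adjusted p = 1.26e-06), Gstm3, a glutathione transferase, by 2.79 ± 0.19 (adjusted p = 4.24e-06), and Ephx1, an epoxide hydrolase, by 1.22 ± 0.13 (adjusted p = 1.71e-04). The carboxylesterase Ces2a fell by 1.17 ± 0.12 (adjusted p = 1.48e-04). On chow 3 of 34 were higher and 0 lower, against 1.44% and 0.478% of all genes, and Abcc4 rose there by 1.61 ± 0.21 (adjusted p = 0.0012).

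With diet, these targets were called in 1 direction only. In HET livers 0 of 34 were higher and 7 lower on HFD than on chow, where 0.149% of all genes were called lower. Their median difference was -0.60. Cyp2c55 fell by 3.69 ± 0.36 (adjusted p = 9.48e-04), Cyp3a11, the usual PXR marker, fell by 2.22 ± 0.23 (adjusted p = 0.0013), and Gstm3 fell by 1.81 ± 0.19 (adjusted p = 0.0013). In KO livers 0 were higher and 5 lower, with a median difference of -0.22, where 0.108% of all genes were called lower. Ces2a fell there by 2.09 ± 0.12 (adjusted p = 7.32e-06), Cyp2c29 by 1.63 ± 0.18 (adjusted p = 0.0024), Slco1a4, an uptake transporter, by 2.30 ± 0.28 (adjusted p = 0.0040) and Cyp2c55 by 2.44 ± 0.36 (adjusted p = 0.0203). Probe sets of Cyp3a11, Cyp2c29 and Gstm3 may pick up signal of close relatives too.

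Cyp2c55 and Cyp3a11 were also the genes with the pattern most like Cyp2b10, with r = 0.97 and 0.92 over 14 livers among 9398 genes compared. Such correlations contain the differences between groups and describe these livers only. Cyp2c55 had 6.40, 6.24 and 6.95 in KO livers on HFD and 3.88, 5.41 and 4.46 in HET livers on HFD, against 8.80, 9.36 and 8.75 in KO, 8.79, 8.02 and 8.01 in HET and 8.12 and 7.31 in WT livers on chow. Like Cyp2b10, Cyp2c55 had all its HFD values below its chow values, with HET livers on HFD lowest.

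**Figure D5:**
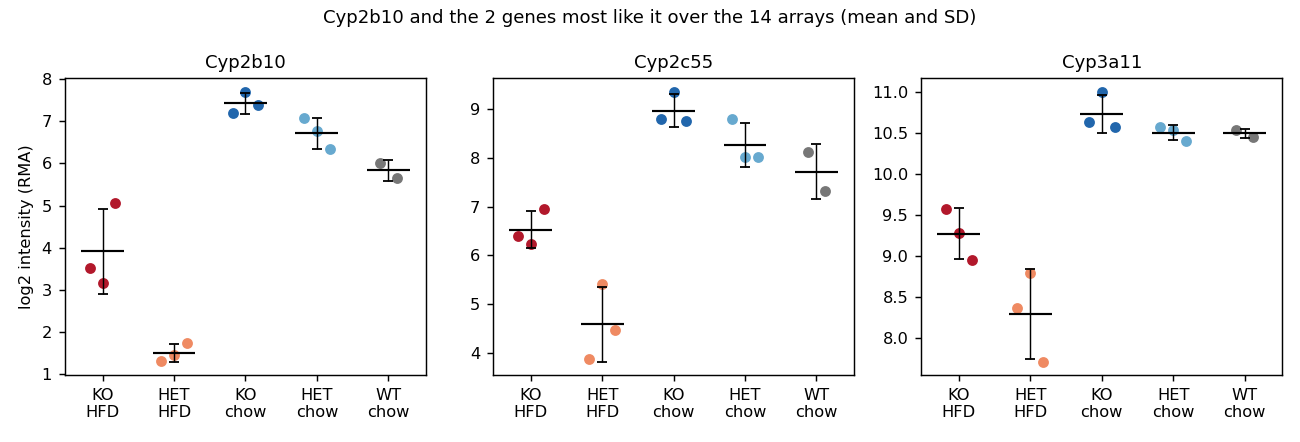
Log2 intensity of Cyp2b10, Cyp2c55 and Cyp3a11 in each liver, each panel on its own scale, with group mean and SD. In all 3 panels the HFD groups lie below the chow groups, and HET livers on HFD are lowest.

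The other members resembled different genes. Cyp2a4 was most like Pparg, the gene of a fat-storage nuclear receptor (r = 0.95), Fitm2, which acts in lipid droplet formation (0.95), and the carboxylesterase Ces1g (0.95). Cyp2a5 was most like Pgrmc1, whose protein binds haem and cytochromes P450 (r = 0.97), Entpd5 (0.93) and the export pump Abcc3 (0.91). Cyp2b9 was most like Pon3, Uck1 and Cenpm (r = 0.91, 0.91 and 0.90), Cyp2b13 like Tysnd1, Rec8 and Rhbg (0.88, 0.86 and 0.86), and Cyp2a22 like Uck1, Slc25a10 and Smyd2 (0.92, 0.91 and 0.91). Nr1i3 was most like Miga2, Nr1h4, the gene of the bile acid receptor FXR, and Eci2 (0.92 each). Among the members, r was 0.92 between Cyp2a4 and Cyp2a5 and 0.84 between Cyp2b9 and Cyp2b13, the pairs with nearly identical start windows. Pairs with less alike windows reached similar values, such as Cyp2a4 and Cyp2a22 (r = 0.84, 63.0% identical bases) and Cyp2a22 and Cyp2b9 (r = 0.81, 53.4%). Between Cyp2b9 and Cyp2b10, with 77.2% identical bases, r was 0.13.

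On chromosome 7, in the stretch from Cyp2s1 to Egln2, RefSeq lists 41 genes, of which 13 beside the 6 cytochromes were measured. Over both diets 1 of these 13 was called, Cyp2a12, higher by 0.24 ± 0.07 in KO than in HET livers (adjusted p = 0.0423), where 6.52% of all genes were called higher. Of the 33 measured Cyp2 genes outside this cluster, 2 were higher and 4 lower in KO than in HET livers on HFD, against 5.5% and 2.06% of all genes. Cyp2d12 rose by 2.99 ± 0.46 (adjusted p = 0.0018), while Cyp2c29 fell by 1.14 ± 0.18 (adjusted p = 0.0023) and Cyp2c68 by 0.93 ± 0.15 (adjusted p = 0.0026).

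Other gene groups tied to these cytochromes also held genes called between KO and HET livers. Their part in the members' changes was not tested. Of all genes, 5.5% were called higher and 2.06% lower in KO than in HET livers on HFD. Of 22 measured genes of NRF2, an oxidative stress factor known to drive Cyp2a5 in mice, and its targets, 14 were higher and 0 lower in KO than in HET livers on HFD, with a median difference of 0.90. Nqo1 rose by 3.38 ± 0.22 (adjusted p = 2.35e-06) and Slc7a11, a cystine transporter, by 4.26 ± 0.36 (adjusted p = 3.20e-05). Abcc4 and Gstm3 stand in this list and in that of CAR and PXR targets. Of 34 other genes known as female-biased in liver, 8 were higher and 1 lower, with a median difference of 0.44. The fatty acid transporter Cd36 rose by 2.46 ± 0.15 (adjusted p = 1.26e-06) and Slc22a27 by 3.72 ± 0.54 (adjusted p = 0.0013), while Adgrf1 fell by 4.03 ± 0.46 (adjusted p = 2.67e-04). Of 17 regulators of growth hormone signalling and sex bias, 1 was higher on HFD, near the share of all genes, and 2 were lower. Among the lower was Bcl6, a repressor of female-biased genes, which fell by 2.65 ± 0.65 (adjusted p = 0.0255). On chow 0 were higher and 3 lower, against 1.44% and 0.478% of all genes, and Onecut1 fell there by 2.78 ± 0.40 (adjusted p = 0.0027).

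Markers of some liver cell types differed with genotype too. Of all genes, 5.5% were called higher and 2.06% lower in KO than in HET livers on HFD. The single called gene in the lymphocyte list and in the endothelial list is too few to set these lists apart from those shares. Fewer cells of a type and less RNA per cell cannot be told apart in such bulk samples. Of 14 hepatocyte markers 0 were higher and 4 lower in KO than in HET livers on HFD, and their mean level was 11.30 to 11.39 in KO livers, against 11.58 to 11.71 in HET livers. Of 18 macrophage and Kupffer cell markers 6 were higher and 1 lower, at a mean level of 6.86 to 7.04 in KO livers against 5.92 to 6.36 in HET livers. Of 13 stellate cell markers 4 were higher and 2 lower, at 6.34 to 6.41 in KO livers against 5.79 to 6.07 in HET livers. Of 8 cholangiocyte markers 3 were higher and 0 lower, at 3.94 to 4.51 in KO livers against 3.37 to 3.50 in HET livers. Of 13 lymphocyte markers 1 was higher and 0 lower, at 3.26 to 3.56 in KO livers against 2.71 to 3.04 in HET livers. Of 12 endothelial markers 0 were higher and 1 lower, at 8.04 to 8.18 in KO livers against 7.95 to 8.04 in HET livers. Hepatocyte markers were bright in every liver. The part of these shifts in the cytochrome results was not tested.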

How the data were processed

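Liver RNA was measured on 14 arrays in 5 groups. The authors deposited log2 intensities, 1 value per probe set and array. Per the submitters' processing notes RMA and limma were used, and batches are not given in the sources used here. Of 41345 probe sets, 23521 carried 1 symbol, 1814 several and 16010 none. The brightest probe set of each of 22180 genes was tested, with no filter on level. limma 3.58.1 in R 4.3.3 fitted group means to all arrays (9 residual degrees of freedom, 3.83 from the prior). Benjamini-Hochberg adjustment ran over all genes, per contrast. Members and gene lists were chosen with earlier results of these data known. Named are the members, Nr1i2, Rxra, Lmna, up to 4 called genes of a list with the smallest p (any of the receptor list), and the 3 genes most like each member among those with a mean of at least 4. Dbp and Arntl were named after their values were seen. Start windows were aligned with Biopython 1.88. Receptor relations used 100000 permutations. In simulated data for KO against HET on HFD, 68% of 50 genes given a log2 change of 1 were called, and 96% of 50 given a change of 2, with 8 false calls among 22180 genes. The changed genes were drawn at random with their own residual spread, so these rates are not those of the members. Cyp2b9 and Cyp2b13 had standard errors of 1.23 and 1.04 there, and their differences of 4.30 and 3.03 were not called.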

Additional observations from a re-analysis of the deposited data

Results flagged for a closer look

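For Cyp2a4 the diet differences pointed in opposite directions in the genotypes, but neither passed the test. HFD minus chow was 0.61 ± 0.52 in KO livers (limma adjusted p = 0.747) and -1.49 ± 0.52 in HET livers (limma adjusted p = 0.336). Of all genes, 6.83% were lower in every HFD than in every chow liver of HET mice, and the share for the KO direction is not given here. Every KO liver on HFD was above every KO liver on chow (9.23 to 9.85 against 8.92 to 9.04), and every HET liver on HFD was below every HET liver on chow (4.88 to 6.81 against 7.15 to 8.53). Cyp2a4 was flagged for this pattern, ranges without overlap in opposite directions, so the pattern is no separate support. KO mice were younger on HFD than on chow and HET mice older, so age and diet cannot be told apart here. The difference between these differences, HFD minus chow in KO livers less HFD minus chow in HET livers, was 2.10 ± 0.74 on the log2 scale, and it did not pass the test over all genes (limma adjusted p = 0.378).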

How the results depend on the processing

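Settings other than the reported one were array weights, a trended and robust prior, a filter on dim genes, averaged probe sets, a fit restricted to the compared groups, the array letter as a random block, a repeated quantile normalization, age as a linear term, an adjusted p under 0.01 and leaving out each array. A clock term (Dbp minus Arntl), leaving out F1 and F2 together and setting dim member values to the array median were added after seeing the data. No paired analysis was possible because the labels tie no liver to one of another group: the numbers in the array names recur within a group, as in F1 and P1, and so give no match of livers between groups. The KO against HET count on HFD, 4 members, was 2 under the letter block, repeated normalization, age or the stricter threshold, and 2 to 6 without single arrays. Over both diets, 6 became 1 with age, which was Nr1i3 and none of the cytochromes, 2 at the stricter threshold and 2 without F1 and F2, and 4 to 6 without single arrays. KO against HET on chow, 0, became 1 with age (Nr1i3) and 0 to 3 without single arrays. KO against WT, 1, became 2 with array weights, 3 in a fit of only those groups, 2 with the clock term, 2 without F1 and F2, and 0 with the trended prior, age or the stricter threshold, and 0 to 2 without single arrays. HET against WT, 0, became 1 without F1 and F2 and stayed at 0 to 0 without single arrays. HFD against chow in HET livers, 1, became 2 with age (Nr1i3 added) and 2 with the clock term or without F1 and F2 (Cyp2b13 added), and was 1 to 1 without single arrays. In KO livers, 1 became 0 with age, and was 1 to 1 without single arrays. The interaction count, 0, became 1 with age (Nr1i3) and was 0 to 0 without single arrays. Among differences with an unadjusted p under 0.05, directions turned under the age term, which is nearly a function of group, for Cyp2b10 in KO against WT on chow (-0.85) and KO against HET over both diets (-0.16), for Rxra in KO against HET on HFD (0.0805) and over both diets (0.64), for Cyp2a4 (1.09) and Cyp2a5 (0.58) in HFD against chow in HET livers, and for Cyp2a4 in the interaction (-2.54). Cyp2b13 in KO against HET on chow turned to -1.14 without F1 and F2. All livers within a KO group had the same age, so the age slope came from gaps within the HET and WT groups. It is carried beyond those gaps in the KO and diet comparisons, so sizes and directions of the age fit are not reliable there. Beyond this, the cause was not tested. Of the member changes reported as called, 91 stayed called, 25 lost the call and 1, Cyp2b10 over both diets with age, turned over the planned settings, and 138 stayed and 44 were lost over fits without 1 array. Genes called over the whole array ranged between 249 with age and 1859 with the trended prior for KO against HET on HFD (1677 reported), 211 with age and 2336 with the clock term over both diets (2091), 143 without F1 and F2 and 670 with chow controls as 1 group for KO against HET on chow (426), 124 with age and 427 with the trended prior for KO against WT (367), 3 in a fit of only those groups and 271 with age for HFD against chow in HET livers (44), 9 at the stricter threshold and 221 with array weights in KO livers (70), and 0 without HET array F2 and 206 with age for the interaction (8). HET against WT gave 0 genes, and 10 without P1.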
